A study of Homo sapiens with 4 samples.

Results

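The genes described here are those of the tight junction strand and of the scaffold beneath it: 5 claudins (CLDN1, CLDN2, CLDN3, CLDN4 and CLDN7), occludin (OCLN), the scaffold genes TJP1 and TJP3, and F11R. Members were all probe sets, groups of short probes that read a transcript, whose single annotated gene symbol is one of these 9 names. The rule gave 16 probe sets for 8 genes, of 54613 probe sets tested on the array. No probe set was paired with F11R, which is not analysed here. All 4 arrays came from LSTGFBR2, a colon cancer epithelial cell line carrying a T-Rex construct from which doxycycline induces TGFBR2, the type II TGF-β receptor. Of these, 2 came from cells given recombinant human TGF-β1 at 5 ng/ml for 16 hours and 2 from cells whose treatment is given as none. The protocol describes doxycycline at 1 μg/ml from seeding, 16 hours before the cytokine, but which arrays received it is not stated. The labels also do not say whether the line is a single clone or whether the replicates were separate cultures.

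Tight junctions seal the space between neighbouring epithelial cells near their apical side. Claudins are small membrane proteins that pair across that space, and the mixture of claudins sets which ions pass: CLDN1, CLDN3, CLDN4 and CLDN7 are usually counted as sealing or barrier-forming types, while CLDN2 forms a cation and water pore. Occludin lies in the same strands, and the ZO proteins encoded by TJP1 (ZO-1) and TJP3 (ZO-3) tie claudin tails to actin. In many epithelia TGF-β lowers claudins and occludin as cells take on mesenchymal traits, and the repressors SNAI1, SNAI2, ZEB1 and ZEB2 act on their promoters through E-boxes.

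Values are RMA expression values on the log2 scale, so that a difference of 1 is a 2-fold change. RMA gives no detection call, and array medians lay between 6.57 and 6.61. The receptor itself differed between the groups. Its probe set 207334_s_at read 14.70 and 14.92 in the TGF-β1 arrays, against 9.44 and 9.55 in the untreated arrays, and its other probe set, 208944_at, had a log2 fold change of 0.03 ± 0.148 (SE). TGF-β1 and receptor induction therefore cannot be told apart in these arrays. All 11 colon epithelium markers examined had a mean above the median of all probe sets, as did 0 of 4 leukocyte, 2 of 6 endothelial and 5 of 7 fibroblast markers. The summed linear level of the fibroblast markers was 1144 to 1256 in the TGF-β1 arrays, against 1271 to 1624 in the untreated arrays. For the endothelial markers it was 462 to 513 in the TGF-β1 arrays, against 463 to 469 in the untreated arrays, and for the leukocyte markers 229 to 232 in the TGF-β1 arrays, against 219 to 240 in the untreated arrays. The groups overlapped in the endothelial and leukocyte sums but not in the fibroblast sum, where the gap rested on COL3A1. Of the 7 fibroblast markers none passed, and 3 had a higher and 4 a lower mean in the TGF-β1 arrays. COL3A1 had the largest change (log2 fold change -1.72 ± 0.672 SE, limma adjusted p = 0.355). It read 7.38 and 5.83 in the TGF-β1 arrays, against 9.18 and 7.48 in the untreated arrays. Its replicates differed within each group by nearly as much as the groups did. The part of these markers in the results below was not tested.

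Of the 16 probe sets, 1 rose, CLDN4 201428_at, none fell, and 15 did not pass (limma across all probe sets, two-sided, Benjamini-Hochberg adjusted p under 0.05). Over the whole array 0.954% of probe sets passed, 0.650% rising and 0.304% falling. At an unadjusted limma p under 0.05, 3 were higher and 3 lower, where 6.34% and 6.87% of all probe sets were. The groups did not overlap for 3 that were higher and 5 that were lower, against 19.2% and 21.6% of all probe sets. The median log2 fold change was -0.07 over the 16 probe sets and -0.01 over all probe sets. All 16 had a mean above the median of all probe sets, so shares over the whole array include many dimmer ones. In a fit of only the 23578 probe sets with a mean of 7 or more, 5113 had an unadjusted limma p under 0.05. So did 6 of the 14 members in that fit. For the 15 that did not pass, the unadjusted 95% intervals lay between -0.87 and 0.84, inside a 2-fold change in either direction. As these are bulk samples, fewer cells expressing a gene and less RNA per cell cannot be told apart.

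**Figure D1:**
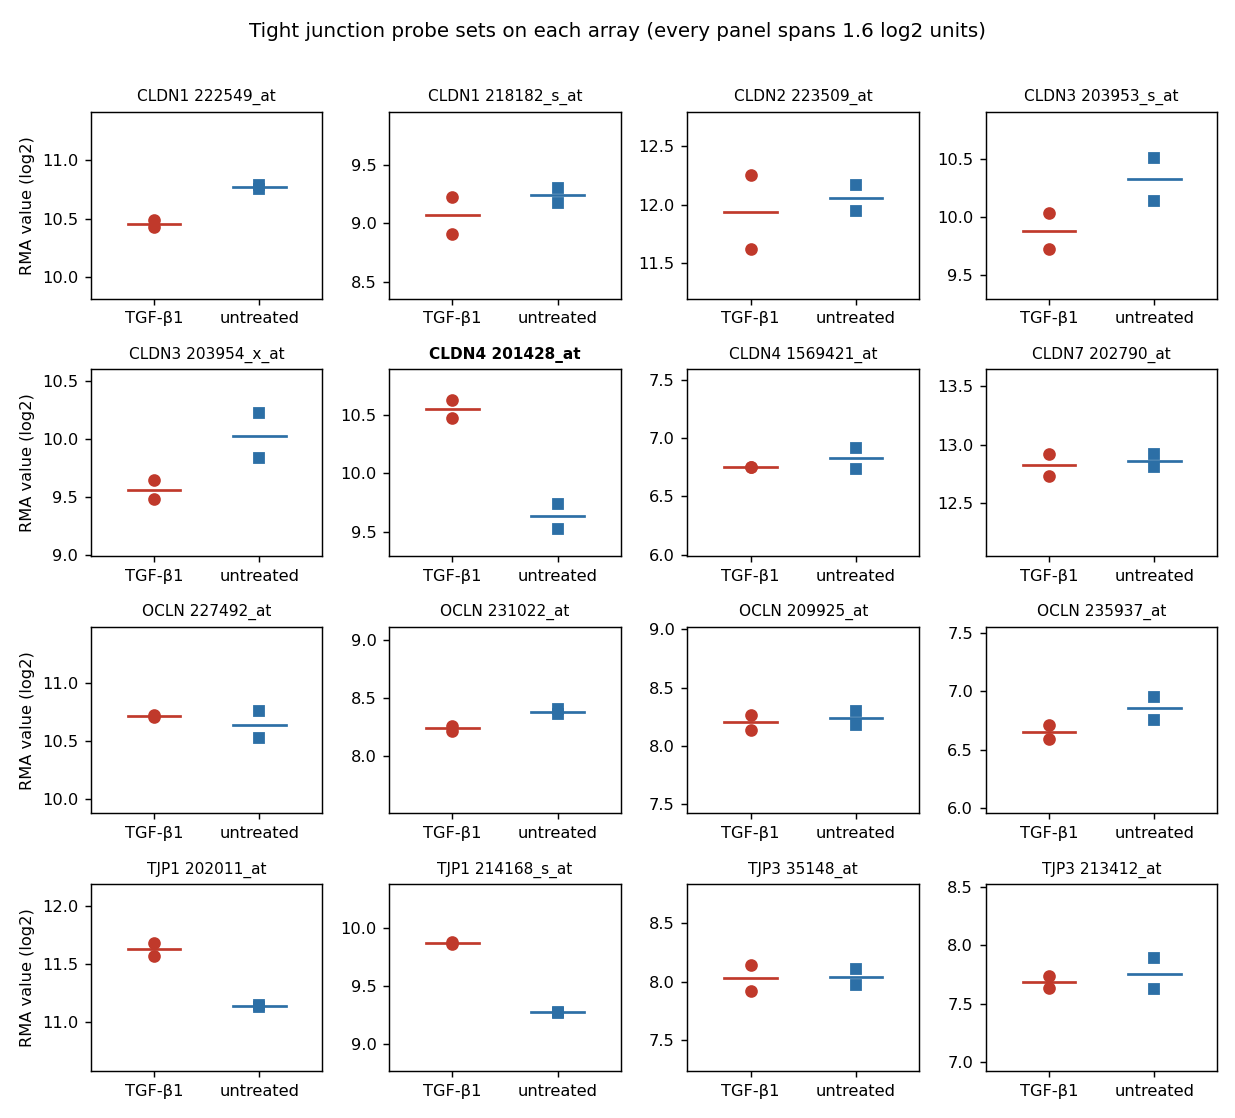
RMA values (log2) of the 16 probe sets, 1 panel each, with TGF-β1 arrays as red circles, untreated arrays as blue squares and a line at each group mean (n = 2). CLDN4 201428_at, in bold, and both TJP1 probe sets have every TGF-β1 array above every untreated array, and both CLDN3 probe sets have the opposite order.

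CLDN4, a barrier-forming claudin and a receptor for Clostridium perfringens enterotoxin, was the claudin that rose. Its probe set 201428_at read 10.47 and 10.63 in the TGF-β1 arrays, against 9.53 and 9.74 in the untreated arrays. Both TGF-β1 values lay above both untreated values, with a gap several times the spread within either group. The change was 1.90-fold, a log2 fold change of 0.92 ± 0.127 (SE, n = 2 per group, 95% interval 0.61 to 1.23, limma adjusted p = 0.0431). This lies under the 2-fold minimum that the series' design text sets for its response signature. The other CLDN4 probe set, 1569421_at, read 6.75 in both TGF-β1 arrays, against 6.92 and 6.73 in the untreated arrays, a log2 fold change of -0.07 ± 0.114 (SE). These values are near the array medians, and RMA does not show whether they stand above background. The mean of both probe sets gave 0.42 for the gene and did not pass (limma adjusted p = 0.0623 over genes). With 1 array left out the log2 fold change of 201428_at was 0.82 to 1.03, and the call was lost each time, as were most calls over the array.

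CLDN3, a barrier-forming claudin that binds the same toxin, is the next protein-coding gene to CLDN4 on chromosome 7, with 0 others between them, and its values lay the other way. Probe set 203953_s_at read 9.73 and 10.03 in the TGF-β1 arrays, against 10.14 and 10.51 in the untreated arrays. Probe set 203954_x_at read 9.49 and 9.64 in the TGF-β1 arrays, against 9.83 and 10.22 in the untreated arrays. By both, the TGF-β1 arrays were the lower ones without overlap, though the untreated replicates differed from each other by nearly as much as the groups did. The log2 fold changes were -0.44 ± 0.172 and -0.46 ± 0.158 (SE, n = 2 per group), and neither passed (limma adjusted p = 0.351 and 0.287). Both probe sets read the same gene on the same arrays, so the pair are not independent readings. An _x_at probe set can also read transcripts of similar sequence. With 1 array left out the log2 fold changes of the CLDN3 probe sets ran from -0.63 to -0.26 and from -0.65 to -0.27, and none passed. Whether the changes of CLDN4 and CLDN3 differ was not tested.

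Of the genes flanking this pair, named after their values were seen, ABHD11 on the CLDN3 side and METTL27 on the CLDN4 side had log2 fold changes of -0.20 ± 0.160 and 0.09 ± 0.122 (SE), and neither passed (limma adjusted p = 0.722 and 0.861). Of the next genes outward, TMEM270 on the CLDN4 side differed by 0.18 ± 0.126 on the log2 scale (SE) and did not pass (limma adjusted p = 0.655). STX1A, a syntaxin gene on the CLDN3 side, read 9.20 and 9.59 in the TGF-β1 arrays, against 8.21 and 8.33 in the untreated arrays. It rose by 1.13 ± 0.156 on the log2 scale (SE, limma adjusted p = 0.0439). With any 1 array left out the log2 fold change was 0.93 to 1.32 and the call was lost, as were most calls over the array.

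The promoters of CLDN4, CLDN3 and CLDN7 are shown because the first rose, its chromosomal neighbour had the opposite sign, and the last holds the most E-boxes of the 8 genes and had a log2 fold change near 0. Each runs 5′ to 3′ on the gene's strand, from 250 bases before the annotated start to 50 after it (RefSeq, GRCh38.p14). Capitals mark 3 motifs, searched on both strands: the E-box CAGGTG bound by SNAIL and ZEB repressors, the AP-1 site TGANTCA, and the SMAD-binding box CAGAC. The motifs were chosen after the values were seen, and no matches of different motifs overlap in these windows.
CLDN4, chr7:73830746-73831045, plus strand: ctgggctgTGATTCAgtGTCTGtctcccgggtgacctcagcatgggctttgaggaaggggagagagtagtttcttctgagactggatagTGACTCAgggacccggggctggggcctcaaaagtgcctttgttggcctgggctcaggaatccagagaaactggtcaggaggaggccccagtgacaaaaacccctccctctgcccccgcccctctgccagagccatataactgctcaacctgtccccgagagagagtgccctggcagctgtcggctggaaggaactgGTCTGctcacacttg
CLDN3, chr7:73770221-73770520, minus strand: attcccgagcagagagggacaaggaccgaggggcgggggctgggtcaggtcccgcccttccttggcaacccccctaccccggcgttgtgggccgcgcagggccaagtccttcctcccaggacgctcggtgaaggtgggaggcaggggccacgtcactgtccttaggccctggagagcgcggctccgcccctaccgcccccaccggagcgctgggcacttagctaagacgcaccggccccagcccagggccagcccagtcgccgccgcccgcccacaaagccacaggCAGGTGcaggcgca
CLDN7, chr17:7262429-7262728, minus strand: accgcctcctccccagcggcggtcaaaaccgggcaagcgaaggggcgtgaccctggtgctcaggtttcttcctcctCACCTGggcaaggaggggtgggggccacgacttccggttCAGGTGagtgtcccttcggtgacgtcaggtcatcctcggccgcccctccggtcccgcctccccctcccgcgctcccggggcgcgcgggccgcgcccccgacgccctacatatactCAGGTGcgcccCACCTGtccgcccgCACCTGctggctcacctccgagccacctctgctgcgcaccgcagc

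The CLDN4 window holds 2 AP-1 matches, starting 242 and 161 bases before the annotated start, 2 SMAD boxes and 0 E-boxes. The CLDN3 window holds 1 E-box, 37 bases into the transcript, and 0 of the other motifs. In the printed CLDN7 window, window 1, there are 5 E-boxes, starting 174, 135, 20 and 9 bases before the start and 6 bases after it. Only 0.168% of all 35116 promoter windows hold 4 or more, a count chosen after the matches were seen. Window 2 of CLDN7, which is not printed, holds 0 E-boxes and 1 SMAD box. Over all windows, 20.6% hold an E-box, 7.71% an AP-1 match and 45.3% a SMAD box. RefSeq gives 15 windows for the 8 genes, since some have several annotated starts, of which 6 hold an E-box, 2 an AP-1 match and 8 a SMAD box. A match describes letters in a window and is not evidence of binding.

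**Figure D2:**
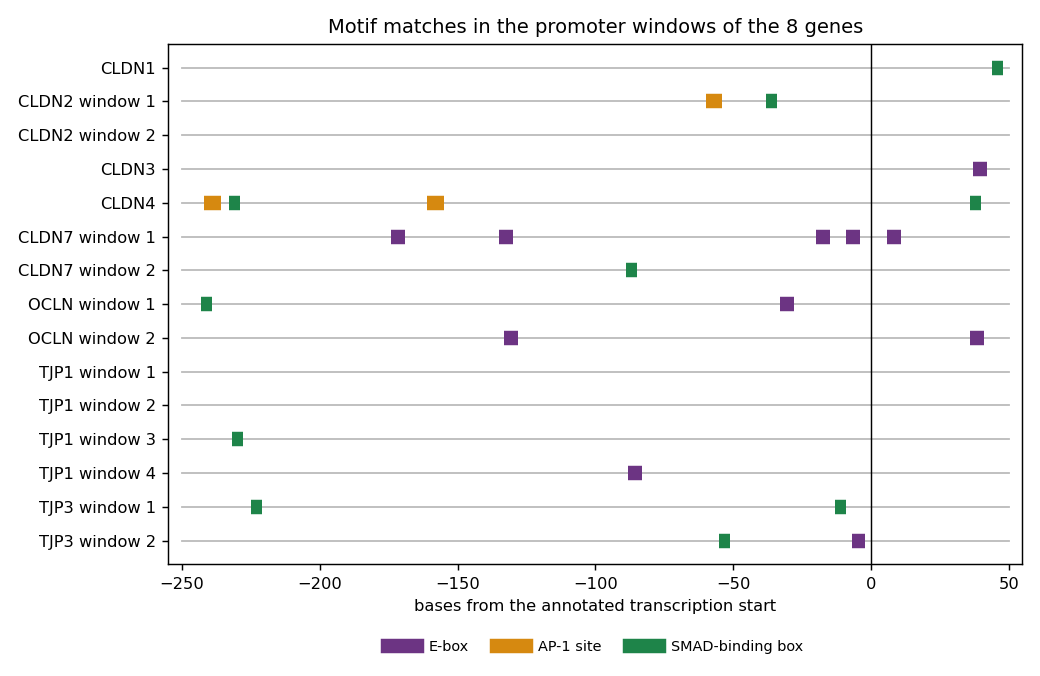
Motif matches along the 15 promoter windows of the 8 genes, in bases from the annotated transcription start (vertical line), with E-boxes in purple, AP-1 sites in orange and SMAD-binding boxes in green. The first CLDN7 window holds 5 E-boxes, and the CLDN4 window holds 2 AP-1 sites, 2 SMAD boxes and 0 E-boxes.

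CLDN7, which is found along the lateral membrane as well as in tight junctions, had close values in the groups. Its probe set 202790_at read 12.92 and 12.73 in the TGF-β1 arrays, against 12.92 and 12.81 in the untreated arrays. The ranges overlapped, with a log2 fold change of -0.04 ± 0.120 (SE, 95% interval -0.33 to 0.26, limma adjusted p = 0.965). CLDN2, the pore-forming claudin, is read by 223509_at, at 12.25 and 11.62 in the TGF-β1 arrays, against 11.94 and 12.16 in the untreated arrays. The TGF-β1 replicates lay on either side of the untreated pair. The log2 fold change was -0.12 ± 0.217 (SE, 95% interval -0.65 to 0.42), the widest interval of the 16 probe sets. Leaving out TGF-β1 replicate 2 turned its sign, to 0.20.

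CLDN1, a barrier claudin that is also a Wnt target in colon cancer cells, had lower values in the TGF-β1 arrays. Probe set 222549_at read 10.49 and 10.43 in the TGF-β1 arrays, against 10.76 and 10.79 in the untreated arrays. These groups did not overlap and the replicates were close, and the log2 fold change was -0.31 ± 0.103 (SE, 95% interval -0.56 to -0.06), which did not pass (limma adjusted p = 0.265). The second probe set, 218182_s_at, read 9.23 and 8.91 in the TGF-β1 arrays, against 9.30 and 9.18 in the untreated arrays. Here the groups overlapped, and the log2 fold change was -0.17 ± 0.141 (SE, limma adjusted p = 0.738). With 1 array left out it ran from -0.33 to -0.0090. Of the 8 claudin probe sets, several of which read the same gene, 7 had a lower mean in the TGF-β1 arrays, as did 52.0% of all probe sets. For CLDN2, CLDN7 and CLDN4 1569421_at, which are among the 7, that sign turned in at least 1 of the fits with 1 array left out.

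Occludin is read by 4 probe sets. The brightest, 227492_at, read 10.73 and 10.71 in the TGF-β1 arrays, against 10.53 and 10.75 in the untreated arrays. Its log2 fold change was 0.08 ± 0.121 (SE, 95% interval -0.22 to 0.37, limma adjusted p = 0.894). The other OCLN probe sets all had negative changes: 231022_at -0.14 ± 0.102, 209925_at -0.04 ± 0.113 and 235937_at -0.20 ± 0.120 (SE), with limma adjusted p from 0.581 to 0.961. Probe set 231022_at read 8.22 and 8.26 in the TGF-β1 arrays, against 8.36 and 8.40 in the untreated arrays, without overlap. For 235937_at the values were 6.71 and 6.59 in the TGF-β1 arrays, against 6.95 and 6.76 in the untreated arrays, close to the array medians. The 4 OCLN probe sets did not share a sign, and each of their intervals includes 0.

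Among the scaffolds, TJP1, which encodes ZO-1, had higher values in the TGF-β1 arrays by both probe sets. Probe set 202011_at read 11.57 and 11.68 in the TGF-β1 arrays, against 11.15 and 11.13 in the untreated arrays. Probe set 214168_s_at read 9.86 and 9.88 in the TGF-β1 arrays, against 9.27 and 9.28 in the untreated arrays. Neither overlapped, and the replicates of each group differed by far less than the groups did. The differences were 1.40-fold and 1.51-fold, with log2 fold changes of 0.49 ± 0.106 and 0.59 ± 0.101 (SE, n = 2 per group, 95% intervals 0.23 to 0.75 and 0.35 to 0.84). Neither passed over all probe sets (limma adjusted p = 0.118 and 0.0684). The second passed when only probe sets with a mean of 7 or more were tested (0.0405), and the mean of both passed over genes (0.54, limma adjusted p = 0.0338). In no other setting with an adjusted p did TJP1 pass. With replicate number as a block, limma gave adjusted p = 0.154 and 0.114. With 1 array left out the log2 fold changes ran from 0.43 to 0.54 and from 0.59 to 0.60.

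TJP3, which encodes ZO-3, a relative of ZO-1 largely restricted to epithelia, had overlapping groups by both probe sets. Probe set 35148_at read 8.14 and 7.92 in the TGF-β1 arrays, against 7.97 and 8.11 in the untreated arrays. For 213412_at the values were 7.74 and 7.64 in the TGF-β1 arrays, against 7.62 and 7.89 in the untreated arrays. The log2 fold changes were -0.01 ± 0.127 and -0.07 ± 0.131 (SE), with 95% intervals of -0.32 to 0.30 and -0.39 to 0.25.

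**Figure D3:**
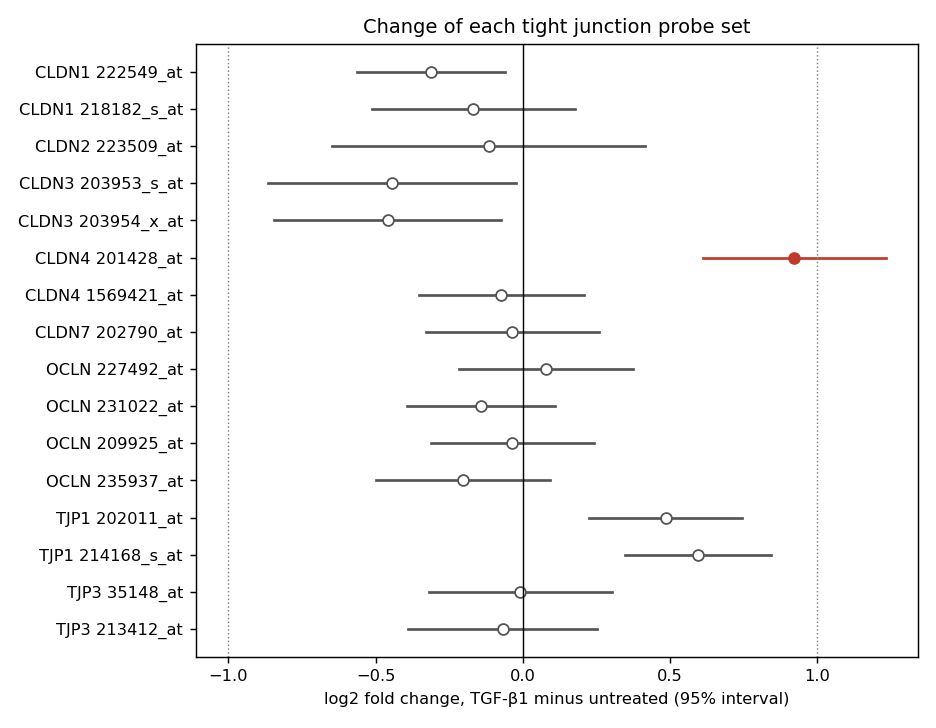
Log2 fold change (TGF-β1 minus untreated) of the 16 probe sets with unadjusted 95% intervals, the red filled point marking adjusted p under 0.05 and dotted lines marking a 2-fold change. CLDN4 201428_at stands at 0.92, the TJP1 probe sets at 0.49 and 0.59, and the CLDN3 probe sets at -0.44 and -0.46.

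The genes whose profiles over the 4 arrays lay nearest to that of CLDN4 201428_at were sought among 19767 other genes, each by its brightest probe set and centred on its own mean, by Euclidean distance in log2 units. They were RAP1GAP, which encodes a GTPase-activating protein for RAP1 (distance 0.037), the long noncoding RNA gene LINC00623 (0.066) and LITAF, which encodes an endosomal membrane protein (0.092). RAP1GAP had a log2 fold change of 0.90 ± 0.121, LINC00623 of 0.95 ± 0.141 and LITAF of 0.87 ± 0.118 (SE). RAP1GAP and LITAF passed and LINC00623 did not (limma adjusted p = 0.0408, 0.0413 and 0.0521). Changes close to that of CLDN4 follow from the way these genes were chosen. With 4 arrays such a match rests on few points.

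The remaining tight junction genes were read in 3 lists by the brightest probe set of each gene, with 56 of 62 listed genes measured. By limma, 1 rose, 1 fell and the other 54 stayed above the threshold. Their median log2 fold change was 0.01. Over all 19775 genes read this way 0.941% rose and 0.485% fell. Among 30 plaque and polarity scaffolds, ARHGEF18 rose and PALS1 fell, and the median was 0.06. ARHGEF18, which encodes a RhoA activator that acts at tight junctions (p114RhoGEF), read 12.30 and 12.24 in the TGF-β1 arrays, against 10.66 and 10.57 in the untreated arrays. Its rise of 3.15-fold (log2 fold change 1.65 ± 0.105, SE, limma adjusted p = 0.00746) came from its only probe set. With any 1 array left out the log2 fold change was 1.61 to 1.70 and did not pass, like most calls over the array.

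PALS1, whose product links the Crumbs polarity complex to PATJ, read 9.28 and 9.44 in the TGF-β1 arrays, against 10.48 and 10.27 in the untreated arrays. It fell by 1.02 ± 0.126 on the log2 scale (SE, limma adjusted p = 0.0344). Its other probe set, 219321_at, also lay lower without overlap and narrowly missed the threshold (log2 fold change -0.93 ± 0.135 SE, limma adjusted p = 0.0501). The PALS1 call was also lost with any 1 array left out (log2 fold change -1.12 to -0.91), as were most calls over the array. Cingulin (CGN), a plaque protein that binds ZO-1 and is named here after its values were seen, had log2 fold changes of 0.64 ± 0.119 and 0.53 ± 0.152 (SE) by its 2 probe sets. Neither passed (limma adjusted p = 0.0823 and 0.210).

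None of the 15 other claudins measured passed by limma, with 3 higher and 0 lower at an unadjusted p under 0.05, where 6.34% and 6.87% of all probe sets were, and a median of -0.01. The 3 were CLDN14, CLDN23 and CLDN12, the last named after its values were seen. CLDN14, a barrier claudin of kidney and inner ear, read 6.56 and 6.53 in the TGF-β1 arrays, against 5.30 and 5.99 in the untreated arrays. CLDN23 read 5.45 and 5.19 in the TGF-β1 arrays, against 4.77 and 4.64 in the untreated arrays. All of these CLDN14 and CLDN23 values lay under the array medians, and the log2 fold changes were 0.90 ± 0.222 and 0.61 ± 0.131 (SE, limma adjusted p = 0.154 and 0.112). CLDN12 was brighter, at 11.01 and 10.87 in the TGF-β1 arrays, against 10.58 and 10.55 in the untreated arrays (log2 fold change 0.38 ± 0.109 SE, limma adjusted p = 0.214). Of 11 other membrane proteins none passed by limma either, with 0 higher and 1 lower at an unadjusted p under 0.05 (6.34% and 6.87% of all probe sets) and a median of -0.06. The junctional adhesion genes IGSF5 and JAM2 had the largest changes, -0.63 ± 0.142 and 0.30 ± 0.130 (SE), at levels under the array medians. Both lists were read by 1 probe set per gene, unlike the shares over all probe sets. In a fit of 1 probe set per gene, 3305 of 19775 genes had an unadjusted limma p under 0.05 in either direction.

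Of 15 measured transcription factors known to regulate tight junction genes, 1 rose, SNAI2, and none fell, where 0.941% and 0.485% of all genes did. At an unadjusted p under 0.05, 2 were higher and 2 lower, against 6.34% and 6.87% of all probe sets. In a fit of 1 probe set per gene, 3305 of 19775 genes had such a limma p in either direction. SNAI2, the E-box repressor Slug, read 9.38 and 9.82 in the TGF-β1 arrays, against 5.34 and 5.75 in the untreated arrays, which is 4.06 ± 0.201 on the log2 scale (SE, limma adjusted p = 0.00443). It passed with any 1 array left out other than untreated replicate 1, without which limma gave an adjusted p of 0.0802. The intestinal factor CDX2 read 8.57 and 8.43 in the TGF-β1 arrays, against 9.32 and 9.14 in the untreated arrays, and did not pass (log2 fold change -0.73 ± 0.119 SE, limma adjusted p = 0.0640). Its other probe set, 231606_at, also lay lower without overlap and did not pass (log2 fold change -0.71 ± 0.132 SE, limma adjusted p = 0.0804). With a minimum mean of 7, 1 probe set per gene or the mean of a gene's probe sets, 1 of the factors fell. Side by side with the SNAI2 rise, the 5 of the 8 genes with an E-box in any promoter window, CLDN3, CLDN7, OCLN, TJP1 and TJP3, had brightest-probe-set log2 fold changes of -0.44, -0.04, 0.08, 0.49 and -0.01. CLDN1, CLDN2 and CLDN4, with 0 E-boxes in these windows, had -0.31, -0.12 and 0.92. Signs were mixed in both sets, and no test was made of this split. Not every window of the 5 genes holds an E-box: window 2 of CLDN7, window 1 of TJP3 and windows 1, 2 and 3 of TJP1 hold 0. Which annotated start these cells use was not tested.

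**Figure D4:**
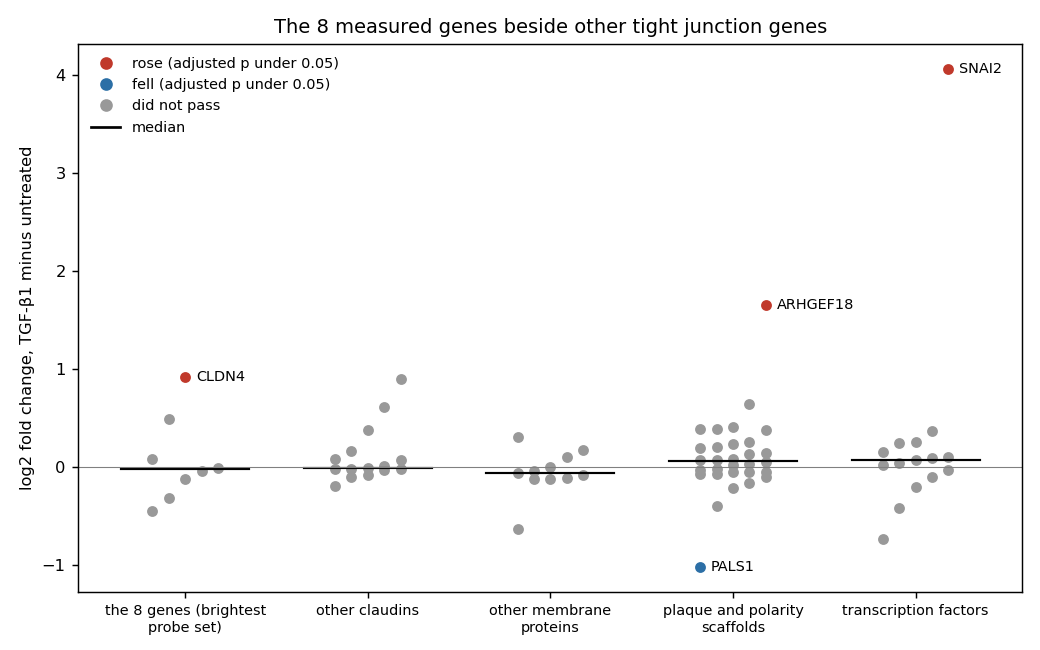
Log2 fold change (TGF-β1 minus untreated) of each gene by its brightest probe set, for the 8 genes, 3 lists of other tight junction genes and the transcription factor list, with black lines at list medians. CLDN4, ARHGEF18 and SNAI2 rose (red), PALS1 fell (blue), and the other points, in grey, did not pass.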

How the data were processed

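Total RNA was labelled as biotinylated cRNA and hybridised to HG-U133 Plus 2.0 arrays, 2 per group. The deposited table gives log2 values, a scale inferred from their range. Per the series' design text and the submitters' processing notes, the authors made them by RMA (background correction, quantile normalization and summarization per probe set), with no software version given in the sources used here. Quantile normalization hides a shift shared by most transcripts.

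Of 54675 probe sets, 62 array controls were left out. The platform annotation pairs 41097 with 1 gene symbol and 1801 with several, and 11777 are not named here. Groups, taken from the sample titles, were compared per probe set with limma 3.58.1 in R 4.3.3 (functions lmFit and eBayes, no covariate, no intensity trend, no filter, two-sided), with Benjamini-Hochberg adjustment over all 54613. Standard errors are moderated, with 5.97 degrees of freedom. An exact permutation test of 2 arrays against 2 cannot go below p = 0.333. As the replicates may be technical, p-values measure only the spread between these arrays, whose number limits the precision. The script was tested on simulated data.

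The genes described, the lists and the tests were chosen with earlier results of these data known. Named genes are every probe set of the 8 genes, called members of each list (or the 2 with the largest change where fewer than 2 passed), TGFBR2, and the 3 genes nearest in profile to a called probe set. Others are said to be named after their values were seen. The effects of 14 alternatives are given in the closing section.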

Additional observations from a re-analysis of the deposited data

How the results depend on the processing

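There were 206 recomputed changes, each of a single probe set or, where probe sets were averaged, of a gene. Of these, 180 kept their sign and their side of the threshold, 7 lost the call, 7 gained it and 12 changed sign. All 12 were among probe sets that did not pass. Most of the gained calls came from dropping the Benjamini-Hochberg adjustment. The minimum means, intensity trend, replicate block, unadjusted thresholds and use of 1 probe set per gene leave each log2 fold change unaltered. In those settings the sign could not change, so the 180 do not measure how stable the signs are. Only centring, averaging a gene's probe sets or leaving out 1 array could turn a sign. In place of 521 calls over the array, 1 among the 16 probe sets, 2 among other tight junction genes and 1 among the transcription factors, a minimum mean of 7 gave 966, 2, 2 and 2. A minimum mean of 5, an intensity trend, and centring on array medians or housekeeping genes gave 595, 697, 652 and 679 calls over the array, each with 1, 2 and 1 in the other sets. An unadjusted p under 0.05 gave 7215, 6, 12 and 4, and with a 2-fold minimum 519, 0, 2 and 1. With 1 probe set per gene 660 genes passed, and with the mean of a gene's probe sets 670, each with 1 of the 8, 3 and 2. With that mean the gene called among the 8 was TJP1, not CLDN4. With the replicate block 88 probe sets, 0 of the 16 (6 at an unadjusted limma p under 0.05) and 1 other tight junction gene passed, and CLDN4 201428_at had an adjusted p of 0.0732. Deviations from the group means correlated at 0.224 between arrays of the same number over all probe sets, but nothing in the labels pairs them.

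With 1 array left out, so that a lone array is assumed to vary like the other group, limma called 0 to 26 probe sets (4895 to 6113 at an unadjusted p under 0.05). It called 0 without untreated replicate 1, 16 without TGF-β1 replicate 1 or untreated replicate 2, and 26 without TGF-β1 replicate 2. Among the 16 probe sets it called 0 (3 to 5 unadjusted), among other tight junction genes 0 (7 to 11 unadjusted) and among the transcription factors 0 to 1. Only 1 residual degree of freedom is left in these fits. They took the log2 fold change of CLDN2 from -0.43 to 0.20, CLDN4 1569421_at from -0.16 to 0.019, CLDN7 from -0.13 to 0.059, OCLN 227492_at from -0.036 to 0.19, OCLN 209925_at from -0.099 to 0.027, TJP3 35148_at from -0.12 to 0.11 and TJP3 213412_at from -0.20 to 0.065. Centring on 6 housekeeping genes (of 8 planned, those found in the annotation) turned TJP3 35148_at to 0.012, and averaging probe sets turned OCLN to -0.075. The cause of these changes was not tested.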
